A study of Schizosaccharomyces pombe with 4 samples.

Results

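The genes described here encode proteins of the cytosolic ribosome of the fission yeast *Schizosaccharomyces pombe*. They are 50 genes listed by systematic identifier, of 12684 features in the count tables, and for all 50 the start and end in the tables were the same as in the RefSeq annotation. The rule that lists them uses no measured value. It holds 19 genes for proteins of the large subunit and 31 for proteins of the small subunit. Among them are 16 pairs and 1 set of 3 paralogs, which together make 35 genes, and 15 genes with no paralog in the list. The same annotation holds 92 other cytosolic ribosomal protein genes and 76 mitochondrial ones among 5113 protein-coding genes.

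Total RNA and poly(A)+ RNA were each sequenced from 2 biological replicates of vegetative haploid cells. The comparison asks what share of each fraction ribosomal protein transcripts take, how paralogs divide it, and how poly(A)+ over total RNA compares with other coding genes of similar length. Both fractions came from h- cells labelled wild type, which all carry *leu1-32* and *pat1-L95G::kanR*, an analog-sensitive allele of the Pat1 kinase, and were grown for 2 days at 30 °C in the minimal medium EMM. Total RNA was depleted of ribosomal RNA and made into directional libraries with mates of 51 and 35 nucleotides, whereas poly(A)+ RNA was selected on oligo(dT) beads and read with mates of 150 nucleotides, after another library preparation and on another instrument. Library preparation, read length and instrument cannot be told apart from the fraction.

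The libraries held 25530272 to 30650533 counts. With n = 2 per fraction, p-values measure only the spread between these samples. The M mating type genes *mfm1*, *mfm2*, *mfm3*, *mam1* and *mam2* together held 57996 to 90562 counts per library, against 267 to 1294 for the P mating type genes *map2* and *map3*. The 5 meiotic genes found of 6 listed together held 127 to 437. In such bulk RNA, fewer cells of a type and less RNA per cell cannot be told apart.

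The eukaryotic ribosome is built from ribosomal RNA and, for most ribosomal proteins, a single copy of each, so that growing cells need these proteins in similar amounts. In fission yeast, as in budding yeast, many of them are encoded by paralogous genes with nearly or fully identical products, and their transcripts are among the most abundant of the cell. Fission yeast ribosomal protein promoters are known for the HomolD box, which takes the place of a TATA box, and for the HomolE box that often precedes it.

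The promoters are shown first, because they share sequence features that the choice of the list did not use. HomolD was searched as CAGTCACA and HomolE as ACCCTACCCT, on both strands of the 250 bases before each annotated gene start. The motifs share no letters where both were found. HomolD stood before 33 of the 50 genes, or 66.0%, against 57 of the 92 other cytosolic ribosomal protein genes and 44 of 4971 other coding genes, or 0.885%. HomolE stood before 19 of the 50, or 38.0%, against 22 of the 92 and 21 of the 4971, or 0.422%. In the 14 genes with both, HomolE began a median of 20 bases farther upstream (range 10 to 24). The nearest HomolD began 16 to 148 bases before the gene start, with a median of 51, and read as written in 23 genes and as its reverse complement, TGTGACTG, in 10.

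Most of the 17 genes without a full HomolD match lacked only its last letter. The first 7 letters, CAGTCAC, began 30 to 90 bases before the start of 46 of the 50 genes, or 92.0%, of 83 of the 92 other ribosomal protein genes and of only 57 of the 4971 other coding genes. This core was found in 14 of the 17. It was absent from that window in *rpl701*, whose full match lies nearer to the start, and in *rps1401*, *rps502* and *rps902*. The core and its window were chosen after the full matches had been seen. A match describes letters and shows neither a bound factor nor a cause.

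The following stretches show the motifs in 3 pairs with unequal paralogs and in *rpl8*, the gene with the highest mean level. Each is the 90 bases before the gene start in the RefSeq assembly ASM294v3, 5′ to 3′ on the gene's strand, with the 7-letter core on either strand and HomolE in capitals. In the *rps1* and *rps18* pairs, the full HomolD match stood before the paralog with the higher level, and in the *rpl4* pair before the one with the lower level.
rps102: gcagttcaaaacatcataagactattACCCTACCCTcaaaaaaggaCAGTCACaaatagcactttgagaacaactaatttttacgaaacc
rps101: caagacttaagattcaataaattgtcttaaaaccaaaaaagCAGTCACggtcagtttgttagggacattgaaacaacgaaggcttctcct
rps1802: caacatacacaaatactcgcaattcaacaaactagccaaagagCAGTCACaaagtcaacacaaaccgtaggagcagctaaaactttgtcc
rps1801: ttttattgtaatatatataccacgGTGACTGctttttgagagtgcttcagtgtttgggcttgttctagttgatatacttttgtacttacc
rpl401: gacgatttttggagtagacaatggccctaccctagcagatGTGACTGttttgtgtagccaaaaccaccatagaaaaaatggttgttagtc
rpl402: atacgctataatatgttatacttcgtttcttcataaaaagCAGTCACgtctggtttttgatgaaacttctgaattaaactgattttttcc
rpl8: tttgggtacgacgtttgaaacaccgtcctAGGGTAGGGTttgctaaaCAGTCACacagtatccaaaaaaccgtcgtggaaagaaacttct

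On the minus strand lie the stretches of *rps102* (chrI:898963-899052), *rps101* (chrI:175785-175874), *rps1802* (chrIII:1033482-1033571), *rps1801* (chrII:3620464-3620553) and *rpl402* (chrII:3637674-3637763). On the plus strand lie those of *rpl401* (chrII:2143030-2143119) and *rpl8* (chrII:2045385-2045474). HomolE in capitals is seen before *rps102* and *rpl8* alone among these 7.

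The genes *rpl701* (SPBC18H10.12c), for large subunit protein uL30, and *rps1402* (SPBC18H10.13), for small subunit protein uS11, lie on opposite strands with 67 bases between their starts. The whole interval between them is printed because it is shared, from the plus strand at chrII:1792296-1792362 with the core in capitals.
rpl701-rps1402: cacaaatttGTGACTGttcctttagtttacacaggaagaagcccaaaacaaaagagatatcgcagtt

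The single full HomolD in it is the nearest match of both genes, 16 bases before the start of *rpl701* and 59 bases before that of *rps1402*.

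**Figure D1:**
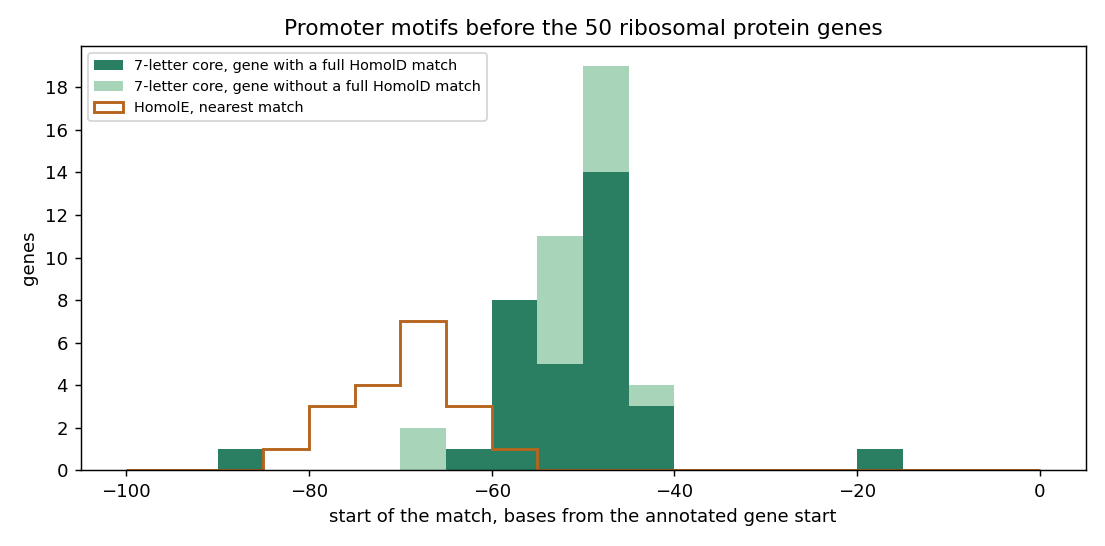
Positions of promoter motifs before the 50 ribosomal protein genes. The x axis gives the start of the match in bases from the annotated gene start and the y axis the number of genes, with dark green for the 7-letter core in genes with a full HomolD match, light green for the core in genes without one, and an orange outline for the nearest HomolE match. The 47 genes with a core within 250 bases peak near 50 bases before the start, and the 19 genes with HomolE peak farther upstream.

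The 50 genes took nearly the same share of both fractions when all counts were the denominator. They held 5.34% and 5.22% of the counts in total RNA (replicates 1 and 2, in this order throughout) and 5.50% and 5.59% in poly(A)+ RNA. The Wilson 95% interval of the first value was 5.33% to 5.35%, and such intervals cover counting error only. Both poly(A)+ values lay above both total values, by 0.261 percentage points on average, and the two-sided exact permutation test gave p = 0.333, the smallest that 2 against 2 libraries allow. The denominator set the size and the direction of this difference. With non-coding genes that have a feature on the opposite strand left out, the shares were 5.56% and 5.43% in the total libraries against 7.84% and 7.98% in the poly(A)+ ones. Per nucleotide of gene length, they were 8.10% and 8.05% against 6.87% and 6.997%.

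Among protein-coding counts alone, the share of the 50 genes was higher in poly(A)+ RNA. It was 6.22% and 6.04% in the total libraries and 7.94% and 8.07% in the poly(A)+ ones, a ratio of means of 1.30 (exact permutation p = 0.333, again the smallest possible). The groups did not overlap. The ratio was 1.32 for the 19 large subunit genes and 1.29 for the 31 small subunit genes. For the 92 other cytosolic ribosomal protein genes, the coding share was 7.56% ± 0.168 in total RNA and 11.2% ± 0.299 in poly(A)+ RNA (SD, n = 2), a ratio of 1.48. Coding genes of 452 to 1473 nucleotides outside the cytosolic ribosome, the length range of the list, had 19.4% ± 0.254 and 22.3% ± 0.182 (SD, n = 2), a ratio of 1.14.

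Levels were compared between genes as counts per nucleotide of the gene, scaled so that the protein-coding genes of a library sum to 1000000. The median level of the 50 genes was 2173 and 2146 in the total libraries and 2592 and 2624 in the poly(A)+ ones, or 46.6 to 66.8 times the median coding gene of the same library. In each library 46 to 49 of the 50 were among the top 5% of coding genes, and 45 were so in all 4. Within the list, the highest level was 7.25 to 16.5 times the lowest. The order of the genes was alike in the fractions (Spearman's rho = 0.85 and Pearson's r = 0.81 on log2 mean levels, over 50 genes measured in the same libraries), which is a description. The median level of the small subunit genes was 2454 and 2362 in the total libraries and 2628 and 2655 in the poly(A)+ ones, and that of the large subunit genes was 1708 and 1753 and then 1689 and 1751.

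The highest mean level was that of *rpl8* (SPBC29A3.04), for large subunit protein eL8, at 4720 and 4687 in the total libraries and 5048 and 4951 in the poly(A)+ ones. The level of *rps102* (SPAC22H12.04c), for small subunit protein eS1, was 4937 and 5039 in the total libraries and 4089 and 4101 in the poly(A)+ ones, and that of *rps20* (SPCC576.09), for uS10, was 3987 and 4000 and then 5081 and 4913. The gene in first place thus differed between the fractions, *rps102* in both total libraries and *rps20* or *rpl8* in the poly(A)+ libraries. The level of *rps2* (SPCC576.08c), for uS5, was 3033 and 2863 in the total libraries and 4869 and 4834 in the poly(A)+ ones, and that of *rps13* (SPAC6F6.07c), for uS15, was 3204 and 2993 and then 4710 and 4597. For both, the poly(A)+ libraries lay far above the total libraries relative to the gap between replicates.

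The lowest mean level was that of *rps1401* (SPAC3H5.05c), for uS11, at 859 and 778 in the total libraries and 307 and 824 in the poly(A)+ ones. Of its poly(A)+ libraries, replicate 1 lay below both total libraries and replicate 2 between them. The level of *rps1902* (SPBC649.02), for eS19, was 682 and 664 in the total libraries and 823 and 914 in the poly(A)+ ones, and that of *rpl302* (SPAPB8E5.06c), for uL3, was 888 and 832 and then 856 and 888. The fractions overlapped for *rpl302* and not for *rps1902*. The level of *rps29* (SPBC1685.09), for the zinc-binding protein uS14, was 1373 and 1153 in the total libraries and 485 and 683 in the poly(A)+ ones. That of *rpl1201* (SPCC16C4.13c), for the stalk-base protein uL11, was 484 and 527 in the total libraries and 1474 and 1548 in the poly(A)+ ones, the lowest of the list in both total libraries.

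**Figure D2:**
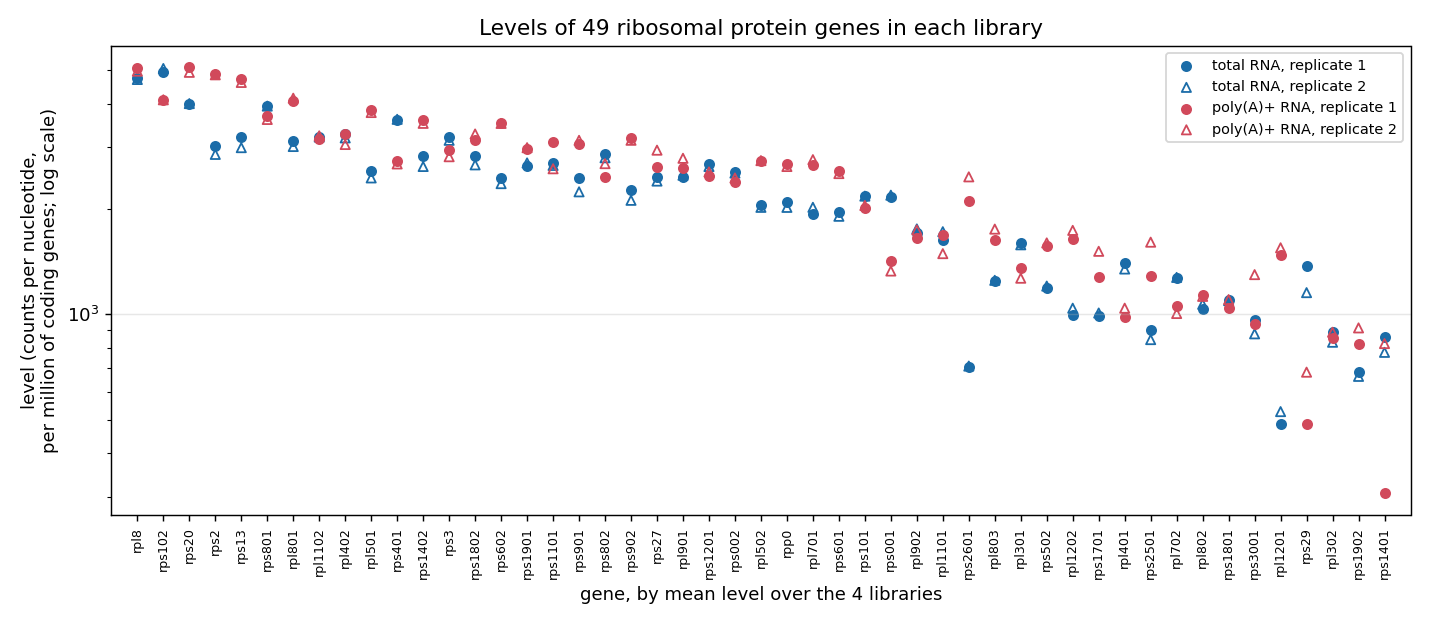
Levels of 49 of the 50 ribosomal protein genes in each library. The y axis gives counts per nucleotide scaled to a sum of 1000000 over protein-coding genes, on a log scale, and the x axis the genes in order of mean level, with filled circles for replicate 1 and open triangles for replicate 2 of total RNA (blue) and poly(A)+ RNA (red). Replicates mostly coincide, apart from *rps1401* in poly(A)+ RNA at 307 and 824, and the fractions stand apart in *rps2601*, *rpl1201* and *rps29*.

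When all annotated paralogs of a protein were summed, those outside the list included, the quartiles of the levels moved closer together. Summing can narrow such a spread by itself, and sums of unrelated genes were not compared. The 50 genes belong to 32 proteins. Over single genes, the upper quartile was 2.27 and 2.22 times the lower one in the total libraries and 2.21 and 2.06 times in the poly(A)+ ones. Over proteins, it was 1.49 and 1.55 times in the total libraries and 1.44 and 1.51 times in the poly(A)+ ones. The ratio of the highest to the lowest was 10.2 and 9.56 over genes and 5.75 and 6.74 over proteins in the total libraries, but 16.5 and 7.25 over genes and 14.1 and 10.3 over proteins in the poly(A)+ ones, so that it rose in poly(A)+ replicate 2. The highest sum in total RNA was that of eS4, from *rps401*, *rps402* and *rps403*, at 7900 and 7775. The lowest sum in every library was that of uS14, whose only gene is *rps29*. In total RNA the next was that of uL11 from the *rpl12* pair, at 1478 and 1567. In poly(A)+ RNA the next was that of uL3 from the *rpl3* pair, at 2213 and 2156, and the sum of uL11 was 3112 and 3285. The sums of these pairs are uncertain, since under 50% of the 51-nucleotide stretches in each of their 4 genes occur once in the genome. How reads that fit both copies were counted is not given.

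The 8 proteins with a single gene were *rpl8*, *rps2*, *rps13*, *rps20* and *rps29*, given above, and *rpp0*, *rps3* and *rps27*. The level of *rpp0*, for the stalk protein uL10, was 2090 and 2020 in the total libraries and 2682 and 2644 in the poly(A)+ ones. That of *rps3*, for uS3 at the mRNA entry of the small subunit, was 3212 and 3141 and then 2950 and 2820, and that of *rps27*, for eS27, was 2475 and 2402 and then 2628 and 2944. On this scale *rps3* and *rps29* were lower in both poly(A)+ libraries than in either total library and the others were higher. Fractions stood apart in this way in 41 of the 50 genes and in 76.2% of other coding genes.

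Within nearly every set, the same paralog had the highest level in all 4 libraries. This held for 16 of 17 sets and 15 of 16 pairs, and 5 pairs were at least 2-fold apart in every library. Over pairs, the median log2 ratio of the higher to the lower paralog was 0.81 in total RNA and 0.78 in poly(A)+ RNA, where the higher paralog was named from these levels, so that its direction is a description. Over 29 pairs of other cytosolic ribosomal protein genes, the median size of the log2 ratio was 0.60 and 0.69.

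Of the 5 widest pairs, 4 encode small subunit proteins. The level of *rps1901* was 3.89 and 4.08 times that of *rps1902* in the total libraries and 3.59 and 3.27 times in the poly(A)+ ones. The level of *rps1402* was 3.31 and 3.40 times that of *rps1401* in the total libraries, but 11.7 and 4.26 times in poly(A)+ RNA, where the replicates stood far apart. For uS13, a protein of the head of the small subunit, *rps1802* stood at 2.57 and 2.44 times *rps1801* in the total libraries and at 3.03 and 2.97 times in the poly(A)+ ones. The ratio of *rps102* to *rps101* was 2.27 and 2.32 in the total libraries and 2.03 and 2.00 in the poly(A)+ ones. The fractions did not overlap in any of these 4 pairs, and the ratio was wider in poly(A)+ RNA in the *rps14* and *rps18* pairs and closer in the *rps19* and *rps1* pairs.

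In the large subunit, the ratio of *rpl402* to *rpl401*, for uL4, was 2.35 and 2.37 in the total libraries and 3.34 and 2.94 in the poly(A)+ ones. The ratio of *rpl1102* to *rpl1101*, for uL5, was 1.97 and 1.86 and then 1.88 and 2.17, with overlapping fractions. In the set of 3 genes for uL2, a protein near the peptidyl transferase centre, *rpl801* took 57.8% and 56.5% of the summed level in the total libraries and 59.6% and 59.0% in the poly(A)+ ones. The gene *rpl803* took 23.0% and 23.4% and then 23.9% and 24.9%, and *rpl802* took 19.1% and 20.02% and then 16.6% and 16.02%. The order of these 3 was the same in all 4 libraries.

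Other pairs were closer to balance, with ratios in total RNA of 1.80 and 1.90 for *rpl301* over *rpl302*, 1.53 and 1.59 for *rpl701* over *rpl702*, and 1.45 and 1.42 for *rpl901* over *rpl902*. For *rps801* over *rps802*, they were 1.37 and 1.41, for *rps602* over *rps601* 1.26 and 1.24, for *rpl501* over *rpl502* 1.251 and 1.214, and for *rps002* over *rps001* 1.18 and 1.16. The single pair whose order differed between fractions was *rps9*, for uS4, where *rps901* stood at 1.08 and 1.06 times *rps902* in the total libraries and at 0.957 and 1.00 times in the poly(A)+ ones. The order in the *rps6* pair turned when counts were not divided by length, since *rps601* is 1270 and *rps602* 811 nucleotides long.

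The mean log2 ratio differed by over 0.5 between the fractions in 4 of 16 pairs and by under 0.2 in 8, and by over 0.5 in 8 of the 29 pairs of other ribosomal protein genes. For *rpl7*, it was 0.61 and 0.67 in the total libraries and 1.34 and 1.46 in the poly(A)+ ones. For *rps0*, which encodes uS2, it was 0.23 and 0.21 and then 0.74 and 0.88, where the share of *rps001* was 46.0% and 46.4% in the total libraries and 37.4% and 35.2% in the poly(A)+ ones. For *rpl12*, it was lower in poly(A)+ RNA, at 1.04 and 0.98 and then 0.15 and 0.17. For *rps14*, it was 1.73 and 1.76 and then 3.54 and 2.09, so that the size of the difference rests on poly(A)+ replicate 1.

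The fractions did not overlap in 13 of 16 pairs, against 25 of 29 pairs of other ribosomal protein genes, or 86.2%, so that such separation was no more common in the list. The exact permutation p was 0.333 for each of the 13, the smallest that 2 against 2 libraries allow. The median size of the difference was 0.20 over the 16 pairs and 0.34 over the 29.

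**Figure D3:**
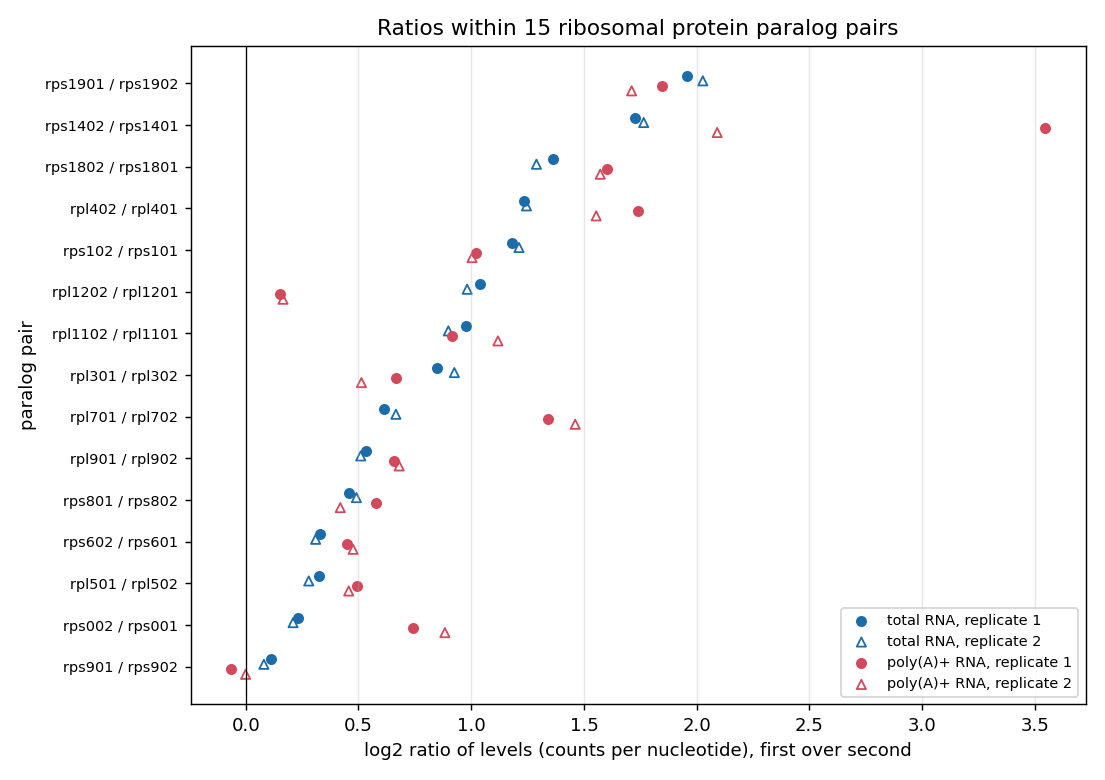
Log2 ratio of levels within 15 of the 16 paralog pairs. The y axis lists the pairs, first gene over second, and the x axis gives the log2 ratio of counts per nucleotide in total RNA (blue) and poly(A)+ RNA (red), with filled circles for replicate 1 and open triangles for replicate 2. The gap between fractions is widest in the *rps14*, *rpl12*, *rpl7* and *rps0* pairs, and the poly(A)+ replicates of *rps14* lie at 3.54 and 2.09.

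Of the 15 genes without a paralog in the list, 7 have one outside it. The share of *rps2601* (SPAC806.03c), for eS26, in its pair with *rps2602* was 19.3% and 19.4% in the total libraries and 37.5% and 43.8% in the poly(A)+ ones. That of *rps1101*, for uS17, was 61.8% and 61.9% and then 70.3% and 69.0%. The shares of *rps401*, *rps1201*, *rps1701*, *rps2501* and *rps3001* lay between 22.9% and 52.3% in all libraries. The share of *rps2601* thus differed most between fractions among these 7.

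Reads from nearly identical paralogs cannot be assigned to a gene by sequence alone. The share of positions in a gene at which the 51-nucleotide stretch occurs once in the genome was 100% in 33 of the 50 genes. It was 15.0% in *rpl1201*, 39.3% in *rpl1202*, 33.3% in *rpl301* and 43.9% in *rpl302*, and for 150 nucleotides it was 18.6%, 45.7%, 36.3% and 47.2% in these 4, in the same order. Their levels, ratios, sums, fold changes between fractions and percentiles are therefore uncertain. Coding sequences were 99.6% identical in the *rpl12* pair, with a shared run of 485 nucleotides, and 96.3% in the *rpl3* pair, with a shared run of 848. Proteins were identical in the *rpl11*, *rpl12*, *rps14* and *rps18* pairs and among *rpl801*, *rpl802* and *rpl803*. The least alike were *rps001* and *rps002*, at 78.0% of coding bases and 80.1% of residues.

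The next stretches show how many letters separate paralogs in the 3 pairs with the largest or least certain differences, other than *rpl7*. For each pair, the 60 coding bases with the most differences are printed from ASM294v3, 5′ to 3′, with the differing bases in capitals.
rpl1201: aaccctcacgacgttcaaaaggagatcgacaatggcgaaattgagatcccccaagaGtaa
rpl1202: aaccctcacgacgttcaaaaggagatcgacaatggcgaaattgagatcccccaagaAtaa
rps1401: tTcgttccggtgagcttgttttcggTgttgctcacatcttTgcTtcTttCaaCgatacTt
rps1402: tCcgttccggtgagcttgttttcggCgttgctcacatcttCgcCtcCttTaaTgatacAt
rps001: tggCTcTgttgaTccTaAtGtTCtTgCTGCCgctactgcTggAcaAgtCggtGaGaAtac
rps002: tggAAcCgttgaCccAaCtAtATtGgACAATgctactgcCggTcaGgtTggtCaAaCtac

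The *rpl12* stretches are coding bases 439 to 498, at chrIII:691135-691194 and chrIII:627212-627271 on the minus strand, and hold 1 of the 2 differences over 498 aligned bases. The *rps14* stretches are coding bases 26 to 85, at chrI:3436312-3436371 and chrII:1792409-1792468 on the plus strand, and hold 8 of 27 differences. The *rps0* stretches, coding bases 741 to 800 of *rps001* at chrII:2779718-2779777 (plus strand) and a run of equal length from base 747 of *rps002* at chrI:4036781-4036840 (minus strand), hold 22 of 172. Divided by unique 51-nucleotide positions in place of length, an alternative chosen after seeing the data, the log2 ratio of *rpl1202* to *rpl1201* turned to −0.38 in total RNA and −1.23 in poly(A)+ RNA.

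The median poly(A)+ over total RNA of the 50 genes was close to that of other coding genes within their length range. In edgeR's quasi-likelihood test across 11234 genes, the log2 fold change of poly(A)+ over total RNA had a median of −0.93 over coding genes, and values are given relative to this median coding gene where said so. Relative to it, the median of the 50 genes was 0.25 (quartiles 0.01 and 0.51). That of the 1683 other coding genes of 452 to 1473 nucleotides was 0.24 (quartiles −0.08 and 0.65). Of these 1683, the 84 other cytosolic ribosomal protein genes had a median of 0.49 and the 1599 remaining genes 0.23. The medians of the 50 and the 1683 differed by 0.0088. The values from replicates 1 and from replicates 2 had an SD of 0.0676, though the labels do not tie same-numbered libraries together. Among genes with no feature on the opposite strand, fitted alone, the difference of medians was −0.18. There the median was −0.04 over 16 genes of the list and 0.13 over 259 other coding genes in the length range. Lengths within the range were not matched, as 1044 of the 1683 but 13 of the 50 were over 1000 nucleotides. In narrower ranges, from short to long, the medians of the list differed by −0.08, −0.21, 0.20 and −0.12.

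Each gene was also placed among the 118 to 1291 other coding genes within 20% of its own length. The median percentile of the 50 genes was 40.2 (quartiles 23.2 and 66.8), and 30 of them stood between the percentiles of 25 and 75. The only gene above the percentile of 90 was *rpl1201*, at 91.7. Below that of 10 were *rps001* at 3.55, *rps1401* at 4.93, *rps29* at 5.08 and *rps401* at 8.72.

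By length, the medians of the list relative to the median coding gene were 0.41 for 9 genes of up to 600 nucleotides, 0.23 for 13 genes above that and up to 800, 0.50 for 15 genes from there to 1000 and 0.06 for 13 longer genes, up to 1473. The medians of other coding genes in the same ranges were 0.49, 0.44, 0.30 and 0.17. The list stood below them in 3 ranges and above them in the third. The 92 other cytosolic ribosomal protein genes had a median of 0.48 and the 76 mitochondrial ones of 0.40. Over 4958 other coding genes, length and the relative log2 fold change had a Spearman's rho of −0.40 and a Pearson's r of −0.32, and over the 50 genes −0.15 and −0.20, as descriptions across genes of the same libraries.

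**Figure D4:**
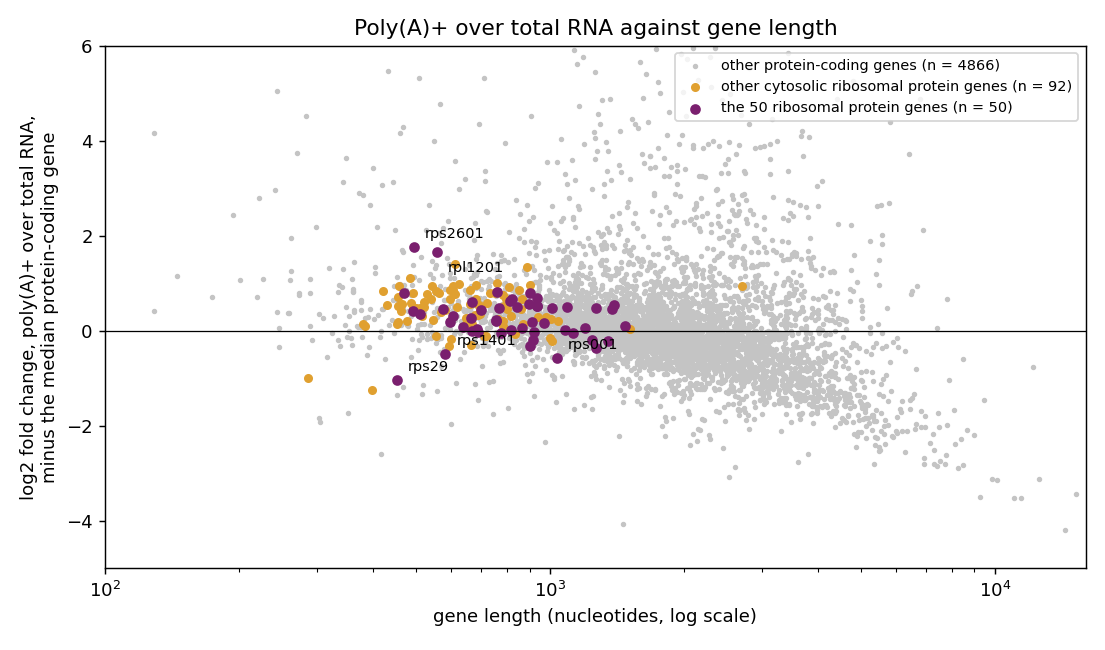
Poly(A)+ over total RNA against gene length. The x axis gives gene length in nucleotides on a log scale and the y axis the log2 fold change minus that of the median coding gene, for other coding genes (grey), 92 other cytosolic ribosomal protein genes (orange) and the 50 genes of the list (purple), with 20 of the coding genes outside the axes. The 50 genes lie among other genes of their length, with *rps2601* and *rpl1201* highest at 1.77 and 1.66 and *rps29* lowest at −1.04.

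How many of the genes passed the test, and in which direction, depended on the scaling between libraries. With TMM factors from all genes, 2 of the 50 were higher and 43 lower in poly(A)+ RNA (edgeR, adjusted p under 0.05), where 49.7% of all genes tested were higher and 35.5% lower, and 7.31% and 63.6% of the other coding genes in the length range. With TMM factors from protein-coding genes, 25 were higher and 4 lower, against 61.0% and 12.7% of all genes tested and 35.3% and 5.53% of the coding genes in the length range. The count of lower genes was 26 without total replicate 1 and 27 without total replicate 2, under the first scaling, where the share of lower genes over all genes tested was 29.1% in both and that over coding genes in the length range 45.5% and 46.8%. Among the 16 genes with no feature on the opposite strand, tested with other such genes alone, 5 were higher and 5 lower, against 21.1% and 26.9% of the 800 genes tested and 17.4% and 15.8% of the coding genes in the length range.

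The same direction was called under both scalings for 6 genes, *rps2601* and *rpl1201* higher and *rpl401*, *rps001*, *rps29* and *rps401* lower. Another 18 were lower under the first and higher under the second, so that their direction is not set by these data. The median relative to the median coding gene was 0.25 under both. This follows by construction, since a change of scaling shifts all genes nearly alike.

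The largest log2 fold change was that of *rps2601*, for the small subunit protein eS26. Its counts were 6059 and 5743 in the total libraries and 13965 and 19566 in the poly(A)+ ones, with a log2 fold change of 0.84 (SE 0.10, edgeR adjusted p = 0.00041), or 1.77 relative to the median coding gene. The counts of *rpl1201* were 4679 and 4798 and then 10979 and 13829, with a log2 fold change of 0.73 (SE 0.11, edgeR adjusted p = 0.0011), or 1.66 relative to the median coding gene. In both genes the fractions were far apart, but for *rpl1201* the log2 fold change was 0.23 with an adjusted p of 0.0723 under DESeq2's size factors in edgeR. Only 15.0% of the 51-nucleotide and 18.6% of the 150-nucleotide stretches of *rpl1201* occur once in the genome. Read length differed between the fractions, so the fold changes of *rpl1201* and its paralog *rpl1202* are uncertain. Next came *rpl1202*, *rps2* and *rps2501*, at 0.81, 0.80 and 0.80 relative to the median coding gene. With edgeR, these did not pass the test with TMM factors from all genes, were higher with those from coding genes and were lower with DESeq2's size factors, which also come from all genes, at −0.62, −0.63 and −0.63 (adjusted p = 0.00065, 0.00038 and 0.0034).

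The lowest log2 fold change was that of *rps29*, which at 452 nucleotides is also the shortest gene of the list. Its counts were 10747 and 8504 in the total libraries and 2930 and 4941 in the poly(A)+ ones, with a log2 fold change of −1.97 (SE 0.17, edgeR adjusted p = 8.2e-05), or −1.04 relative to the median coding gene. Its neighbour on chromosome II, *rps27*, had 28455 and 26032 counts and then 23303 and 31287, at 0.27 relative to the median coding gene. The counts of *rps001* were 38964 and 37086 and then 19724 and 22078, at −0.58 relative to the median coding gene, whereas its paralog *rps002* stood at 0.01. The remaining low genes were *rps1401*, *rpl401* and *rps401*, at −0.48, −0.36 and −0.32.

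Only *rps1401* differed by over 1.5-fold in counts scaled to library size between libraries of the same fraction. Its counts were 8657 and 7391 in the total libraries and 2389 and 7680 in the poly(A)+ ones, 2.70-fold apart after scaling. It lies wholly within *aar2*, a gene on the opposite strand whose product is known for assembly of the U5 small nuclear ribonucleoprotein. The counts of *aar2* were 1551 and 1463 in the total libraries and 3460 and 8936 in the poly(A)+ ones, which exceeds *rps1401* by 1071 and 1256 in poly(A)+ RNA. The log2 fold change of *rps1401* was −1.41 (SE 0.39, edgeR adjusted p = 0.0144), −0.83 without poly(A)+ replicate 1 and −2.21 without poly(A)+ replicate 2. The next widest poly(A)+ replicates were those of *rps29*, *rps3001* and *rps2501*, 1.42-fold, 1.40-fold and 1.26-fold apart, whereas in total RNA the log2 ratio of replicate 2 to replicate 1 lay between −0.26 and 0.11 over the 50 genes.

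Poly(A)+ counts of these genes recurred on features of the opposite strand. Of the 50 genes, 34 overlap such a feature, 8 of them a coding gene. In the 26 that overlap only long non-coding RNAs there, these RNAs together held a median of 0.213% of the gene's own counts in total RNA and 74.3% in poly(A)+ RNA. SPNCRNA.625, which covers *rps2601* completely, had 51 and 56 counts in the total libraries and 15809 and 22276 in the poly(A)+ ones. SPNCRNA.4762, which covers *rps1902* completely, had 17 and 25 and then 7768 and 10005, beside 7692 and 10239 of *rps1902* itself. In the poly(A)+ counts, RNA of either strand cannot be told apart, so a poly(A)+ count of these genes may hold reads of both, and how much was not tested. Relative to the median coding gene, the median was 0.33 over the 34 genes and 0.07 over the 16 without such a feature.

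Features that lie wholly inside a gene on the opposite strand mostly had many poly(A)+ counts, whereas a single feature in a coding intron had few. The cause was not tested. There are 8 of them in 8 genes. In *rps101*, *rps601*, *rpl1101*, *rps502* and *rps3* they lie outside coding introns and had 12 to 69 counts in total RNA and 12697 to 34257 in poly(A)+ RNA. SPNCRNA.4794 lies completely in the intron of *rps1701*, for eS17, and had 2 and 3 counts in the total libraries and 14 and 40 in the poly(A)+ ones, where *rps1701* had 15335 and 21746. SPNCRNA.2786, in a part of *rpl301* where no 150-nucleotide stretch is unique, had 1161 and 1345 in poly(A)+ RNA, where *rpl301* had 22582 and 25278. Genes with an intron, 21 of the 50, had a median of 0.35 relative to the median coding gene, and the 29 without one had 0.18.

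Small RNAs within the genes on the same strand held few counts. *snoR39b* in *rpl701* had 163 and 103 counts in total RNA, where *rpl701* had 46658 and 45858, and *snR48* in *rps3* had 132 and 139, where *rps3* had 62751 and 57831. In poly(A)+ RNA they had 23 to 24 and 15 to 32.

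Across the pathway, the other cytosolic ribosomal protein genes gave calls that turned with the scaling in the same way. With TMM factors from all genes, 2 of the 92 were higher and 64 lower, and with those from coding genes 65 were higher and 2 lower. The lowest were *rpl4101* and *rpl4102*, for the very short protein eL41, at −1.26 and −0.99 relative to the median coding gene, and the highest were *rpl2701*, for eL27, and *rpl6*, for eL6, at 1.40 and 1.35. Of these only *rpl4101* lay outside the range of the list. Of the 76 mitochondrial ribosomal protein genes, 3 were higher and 47 lower with TMM factors from all genes. With TMM factors from coding genes, 42 of the 76 were higher and 4 lower. Over the 5008 coding genes tested, 395 were higher and 3625 lower with factors from all genes. With those from coding genes, 1327 of the 5008 were higher and 1222 lower.

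Genes that act on ribosomal protein supply were looked up by 28 symbols, of which 25 were found, among them promoter factors, TOR complex 1 and its inputs, S6 kinases and chaperones of single ribosomal proteins. In this annotation, *bcp1* is a thioredoxin peroxidase and *nap1* a histone chaperone, neither annotated as a chaperone of a ribosomal protein. With TMM factors from all genes, 21 were lower and 0 higher by edgeR, also 0 higher at an unadjusted p under 0.05 and 0 by DESeq2. With those from coding genes, 11 were lower and 3 higher. Of the 5008 coding genes tested, 3625 were lower and 395 higher under the first scaling. Under the second, 1222 were lower and 1327 higher. Without *bcp1* and *nap1*, 19 of 23 were lower under the first scaling, and 11 lower and 3 higher under the second. Their median was −0.22 relative to the median coding gene. These genes were not matched by length, although length and the relative log2 fold change were related over coding genes, as given above. The lowest was *tor2*, for the kinase of TOR complex 1, with 11716 and 12155 counts in the total libraries and 1809 and 2591 in the poly(A)+ ones, at −2.18 relative to the median coding gene. The 3 higher ones were *gtr2*, for a Rag GTPase, *acl4*, a chaperone of uL4 in budding yeast, and *tsr2*, a chaperone of eS26 in budding yeast, at 1.32, 1.12 and 0.85.

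Motifs were not found before the higher paralog alone. HomolD stood before both genes in 6 of 16 pairs, before only the higher in 7 and before only the lower in 3, which are *rpl401*, *rpl1101* and *rps001*. HomolE stood before only the higher in 6 pairs and before only the lower in 4. In total RNA, the median level was 2345 over the 33 genes with a full HomolD match and 2055 over the 17 without, and in poly(A)+ RNA it was 2703 over the former and 2291 over the latter. Relative to the median coding gene, the median log2 fold change was 0.31 with the match and 0.18 without.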

How the data were processed

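Counts were deposited by the authors as whole-number read counts per gene, with no normalization, for 2 total RNA and 2 poly(A)+ RNA libraries. According to the labels and methods, reads were trimmed (cutadapt 1.15, fastp 0.23.1), aligned with STAR 2.6.1d and counted with featureCounts (Subread 2.0.6). Genome build and options for strand, overlapping features and multi-mapping reads are not given in the sources used here. In both deposited files the header is shifted by 1 field, so the count columns were identified from the length field, which equals end minus start plus 1.

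Here, all genes were tested with edgeR 4.0.16 (quasi-likelihood, TMM, filterByExpr, Benjamini-Hochberg adjustment) in R 4.3.3 with limma 3.58.1. DESeq2 1.42.0 and other scalings, filters and length measures served as alternatives. Levels are counts per nucleotide of the whole gene, introns included. Shares and ratios were compared by two-sided exact permutation tests over libraries (scipy 1.17.1). Python 3.11.15, numpy 2.4.6, pandas 2.3.3, Biopython 1.88 and matplotlib 3.10.9 were used, and sequences and names came from RefSeq, where 12641 of 12684 features matched by identifier. Scripts were tested on simulated data. Genes named with values were those in paralog sets, the 5 highest and the 5 lowest by mean level and by log2 fold change, those whose replicates differed by over 1.5-fold, and the 2 highest and 2 lowest of the other cytosolic ribosomal protein genes. One gene of the list is not reported here by name. The other genes named lie beside these or were chosen after their values were seen. The gene list, the marker and supply lists and the tests were chosen with earlier results of these data known. Depth ranged from 25530272 to 30650533 counts, and reads without molecular identifiers are not independent molecules.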

Additional observations from a re-analysis of the deposited data

How the results depend on the processing

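The calls among the 50 genes moved with the scaling between libraries and with the genes tested. Higher in poly(A)+ RNA were 1 of the 50 genes with DESeq2 and with DESeq2's size factors in edgeR, 21 with library totals alone, 25 with TMM factors from protein-coding genes, 24 when coding genes were fitted alone (chosen after seeing the data) and 5 of 16 among genes with no feature on the opposite strand. The share of higher genes over all genes tested was 41.5%, 46.9%, 56.7% and 61.0% in the first 4 of these and 21.1% in the last, and 1255 of 5011 with coding genes alone. Over coding genes in the length range, 71 of 1735 were higher with DESeq2, 70, 367 and 594 of 1683 in the next 3, 32.8% with coding genes alone and 45 of 259 in the last. Lower among the 50 were 10 with library totals, 4 with factors from coding genes, 3 with coding genes alone, 5 with no feature on the opposite strand and 26 to 46 when each library was left out in turn, where 29.1% to 38.0% of all genes tested were lower. Over all genes, 9578 were called in either direction, against 2444 with coding genes alone and 384 with no feature on the opposite strand, where fewer genes are tested. With TMM factors from coding genes, 65 other cytosolic ribosomal protein genes were higher and 2 lower, and 3 supply genes were higher and 11 lower, and with DESeq2 0 of the former were higher (edgeR with DESeq2's size factors also gave 0). The log2 fold change of *rpl1202* turned to 0.63 with library totals, 0.86 with factors from coding genes and 0.85 with coding genes alone. That of *rps2* turned to 0.62, 0.85 and 0.84, and to 0.57 with no feature on the opposite strand. That of *rps2501* turned to 0.62, 0.84, 0.84 and 0.57 in the same order, and ranged from −0.24 to 0.035 with a library left out (0.035 without poly(A)+ replicate 1). With DESeq2 and with its size factors in edgeR, these 3 genes were lower. The call of *rps1401* was lost with library totals (adjusted p = 0.219, edgeR), factors from coding genes (0.353), coding genes alone (0.410) and without total replicate 1 (0.0629). That of *rps401* was lost with coding genes alone (0.0647).

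The difference between poly(A)+ and total RNA in the share of the library turned to −1.14 percentage points when counts were divided by gene length. With a library left out, it ranged from 0.202 to 0.320 percentage points. The difference of medians from coding genes in the length range was −0.18 with no feature on the opposite strand and −0.034 to 0.059 with a library left out. The log2 ratio of *rpl1202* to *rpl1201* turned to −0.38 in total RNA and −1.23 in poly(A)+ RNA per unique 51-nucleotide position. As plain counts, that of *rps602* to *rps601* turned to −0.33 and −0.18, and that of *rps901* to *rps902* in poly(A)+ RNA to 0.17, or 0.055 per exonic nucleotide. The cause was not tested beyond what each alternative changes by construction. With the replicate number as a block, 2 of the 50 genes were higher and 43 lower. Of the 92 other cytosolic ribosomal protein genes, 2 were higher and 59 lower. Over the 11234 genes tested, 5518 were higher and 3900 lower, or 9418 in all. Of the 1683 other coding genes in the length range, 111 were higher and 1021 lower. The labels do not tie same-numbered libraries to a shared culture, and the correlation of their deviations was −0.016 over 11234 genes and −0.42 over the 50, so the numbers were not taken as pairing. Each fraction has 2 libraries, and how many poly(A)+ reads come from the opposite strand was not tested.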
